A study of Mus musculus with 30 samples.

Results

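The genes described here are 9 genes of myelin and of the oligodendrocyte, the cell that wraps axons of the central nervous system: Mbp, Mobp, Mal, Mag, Mog, Cldn11, Cnp, Ugt8a and Myrf. They were taken from a list of symbols, and all 9 matched 1 row each of the 48709 genes counted. Their RNA was measured in brain, kidney, liver, muscle (quadriceps femoris) and spleen of adult C57BL/6 mice. Each tissue had 3 libraries from wild-type mice (WT, labelled control) and 3 from mice labelled Ctcf haploinsufficient (Ctcf+/-, heterozygous), 30 libraries in all. CTCF, the product of Ctcf, is a DNA-binding protein that anchors loops of chromatin. The series' design names 3 mice of each genotype. It does not describe the allele, and the labels do not say which libraries came from the same mouse or which region of the brain the piece of tissue was.

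Myelin is a stack of oligodendrocyte membrane around an axon. Some of these genes encode proteins that hold the layers together, others sit in the innermost or outermost layer or in the junctions between layers, others make myelin lipids, and Myrf encodes the transcription factor that switches mature oligodendrocytes to making myelin. Schwann cells make myelin in peripheral nerves and use part of the same set of genes. Several of the 9 also have known uses outside myelin: Mal sorts proteins to the apical membrane of epithelia, the Mbp gene also encodes the golli proteins of immune cells, and Cldn11 builds tight junctions.

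The sequences before the start site are shown for genes with contrasting patterns: Mobp and Mog, which were close to absent outside the brain, Mal and Cldn11, which were also present in kidney, and Ugt8a, an enzyme gene present in brain and kidney. Each run is the 250 bases before the start site in RefSeq (GRCm38.p6), 5′ to 3′ on the strand of the gene, and 7 of the 9 genes had an entry in the promoter table. Capitals mark exact matches, on either strand, to the motif ACAAAG and its variant ACAATG (both bound by SOX family factors), to the E-box CANNTG, to the GC box GGGCGG and to the TATA box TATAAA.
Mobp, chr9:120149492-120149741, plus strand: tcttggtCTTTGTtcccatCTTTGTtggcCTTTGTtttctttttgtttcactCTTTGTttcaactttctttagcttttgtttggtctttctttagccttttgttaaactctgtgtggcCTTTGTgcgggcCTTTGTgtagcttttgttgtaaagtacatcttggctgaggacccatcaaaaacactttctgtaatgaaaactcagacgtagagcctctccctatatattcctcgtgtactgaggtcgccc
Mog, chr17:37023399-37023648, minus strand: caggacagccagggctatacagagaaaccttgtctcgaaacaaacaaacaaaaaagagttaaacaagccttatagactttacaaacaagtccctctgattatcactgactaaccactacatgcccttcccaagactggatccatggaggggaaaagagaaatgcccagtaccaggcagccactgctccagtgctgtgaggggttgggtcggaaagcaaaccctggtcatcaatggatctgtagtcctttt
Mal, chr2:127656696-127656945, minus strand: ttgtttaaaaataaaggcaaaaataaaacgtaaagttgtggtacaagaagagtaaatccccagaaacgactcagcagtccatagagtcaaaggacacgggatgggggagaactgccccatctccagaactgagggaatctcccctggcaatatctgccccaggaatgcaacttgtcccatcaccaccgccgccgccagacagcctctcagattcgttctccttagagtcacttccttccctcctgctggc
Cldn11, chr3:31149670-31149919, plus strand: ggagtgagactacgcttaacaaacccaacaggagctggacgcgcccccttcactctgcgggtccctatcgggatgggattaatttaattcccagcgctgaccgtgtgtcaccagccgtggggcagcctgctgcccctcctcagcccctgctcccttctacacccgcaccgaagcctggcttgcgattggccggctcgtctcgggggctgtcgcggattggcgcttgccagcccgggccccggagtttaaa
Ugt8a, chr3:125938653-125938902, minus strand: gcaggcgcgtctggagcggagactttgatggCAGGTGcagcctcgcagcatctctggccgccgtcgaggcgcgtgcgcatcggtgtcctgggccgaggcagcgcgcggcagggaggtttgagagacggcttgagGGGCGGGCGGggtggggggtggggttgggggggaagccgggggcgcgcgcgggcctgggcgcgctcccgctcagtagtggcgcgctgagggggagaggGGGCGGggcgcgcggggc
The Mobp window held 6 matches to ACAAAG, all written as CTTTGT on the strand shown, and no match to the other motifs. Of 32851 windows of this length in the table, 16.5% held at least 1 ACAAAG match, and the Mobp window was the only 1 with 6 or more. ACAATG matched in 10.7% of the windows, CANNTG in 66.2%, GGGCGG in 32.7% and TATAAA in 12.4%. The Mog, Mal and Cldn11 windows held none of the 5 motifs. The Ugt8a window held 1 E-box and 3 GC boxes, of which a pair overlap each other. G and C made up 40.8% of the Mobp window, 46.8% of that of Mog, 50% of that of Mal, 63.6% of that of Cldn11 and 76.8% of that of Ugt8a, beside a median of 52.4% over all windows. Of the genes without a printed window, Mag lies at chr7:30899176-30914873, Cnp at chr11:100574904-100591729 and Myrf at chr19:10208272-10240748 (GRCm38). These matches describe the letters and not binding, which was not measured.

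Depth was 49819907 to 131645999 counts per library. In CPM (counts relative to library size, scaled by edgeR's TMM factors, which set most genes level between libraries) Ctcf was lower in every heterozygous library than in every WT library of the same tissue, while in TPM (levels per exon length that sum to the same total in each library, with no TMM scaling) the spleen groups overlapped. Its log2 fold change ranged from -0.57 in muscle to -0.70 in kidney. Among the 5 fits it was called in that of brain (log2 fold change -0.69, edgeR adjusted p = 0.0259) and in no other. Without WT replicate 1, heterozygous replicate 1 or heterozygous replicate 2 the brain fit called 0 genes, so this call was lost. The brain libraries carried the defining genes of neurons at a summed 3755.5 to 4391.1 TPM and the 9 genes at 3178.0 to 3939.3 TPM. The WT liver library of replicate 3 stood apart from the other 5 liver libraries in 7 of the 9 genes and in neuronal genes, and the liver results that it moves are given with and without it. In spleen and muscle, genes of the kidney tubule were present in some libraries, which is taken up beside Mal.

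In WT brain, the 9 genes spanned a 44.4-fold range of levels per length. Mbp, whose protein joins the cytoplasmic faces of the membrane layers, stood at 1256.1 ± 115.8 TPM (SD, n = 3) and ranked 59th among all genes. Mobp, another protein of the compact layers, stood at 627.5 ± 56.7 TPM. Mal, a raft protein of compact myelin, and Cnp, an enzyme of the cytoplasmic channels in myelin, had 454.1 ± 56.4 and 443.4 ± 42.8 TPM, a difference smaller than their spread. Cldn11, the claudin of the tight junctions between myelin layers, had 332.7 ± 46.5 TPM. Mag, an adhesion protein on the side of the axon, and Mog, on the outermost surface, had 225.1 ± 43.0 and 189.4 ± 28.9 TPM, also within the spread of each other. Ugt8a, which adds galactose to ceramide to make the main myelin glycolipids, had 46.4 ± 1.66 TPM. Myrf had 28.3 ± 4.30 TPM and ranked 5524th.

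**Figure D1:**
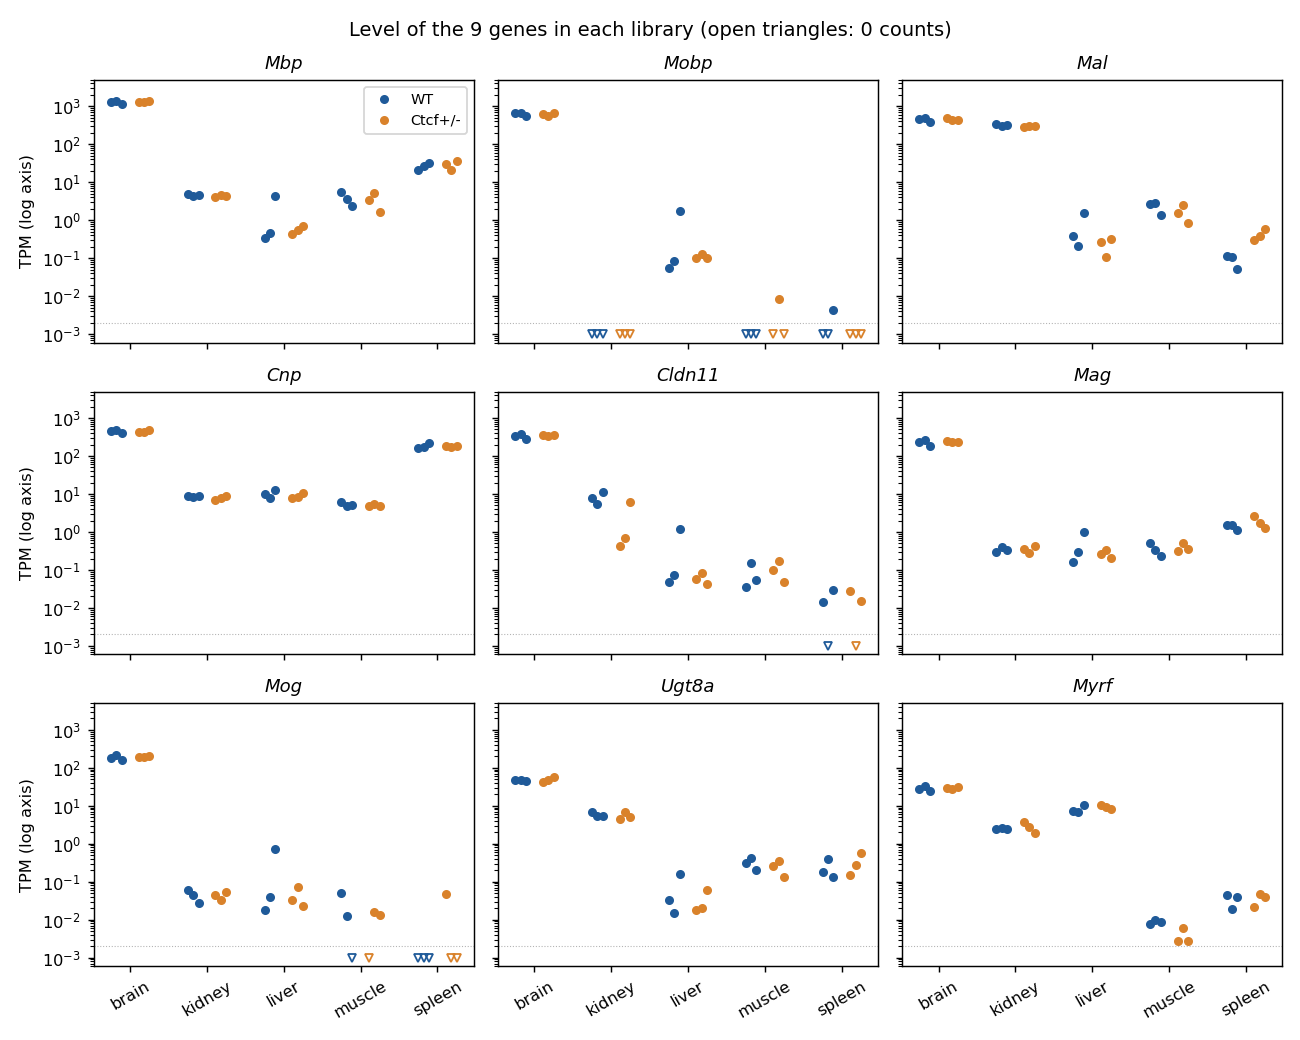
TPM (log axis) of each gene in each of the 30 libraries, by tissue and genotype, with 1 point per library and open triangles for 0 counts. All 9 genes are at 24 TPM or more in the brain libraries, Mal is at 284.8 to 341.7 TPM in kidney, Cnp at 165.2 to 219.0 TPM in spleen, and the WT liver library of replicate 3 stands above the other liver libraries for Mbp, Mobp, Mal, Cldn11, Mag and Mog.

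Brain was compared with each other tissue in 1 fit of the 15 WT libraries (edgeR quasi-likelihood F-test, Benjamini-Hochberg adjustment over 22933 genes; a gene is called at an adjusted p under 0.05). Of the 9 genes, 9 were higher in brain than in muscle, 9 than in spleen, 8 than in kidney and 8 than in liver. Over all genes, 39.9% were called higher in brain than in muscle, 42.8% than in spleen, 35.5% than in kidney and 39.9% than in liver. The exceptions were Mal against kidney and Myrf against liver. The median log2 fold change of the 9 genes was 5.08 against kidney, 7.87 against liver, 7.50 against muscle and 9.22 against spleen, while the median over all genes was between -0.02 and 0.19. Without WT liver replicate 3 the median against liver was 9.09. The same counts, 8, 8, 9 and 9, were obtained in the 15 heterozygous libraries. In tissue homogenates, fewer cells of a type and less RNA per cell cannot be told apart.

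Outside brain and liver, Mobp and Mog were close to 0 counts. Mobp had 0 counts in every kidney library of both genotypes and in every WT muscle library, 1 count in a single WT spleen library and 2 counts in a single heterozygous muscle library. Against a floor of 3 counts in each library, its level in WT brain was at least 37169.1-fold higher than in kidney, at least 17551.4-fold higher than in muscle and at least 37029.7-fold higher than in spleen. Mog was at 0 counts in all 3 WT spleen libraries, so it was at least 2942.8-fold higher in brain. It had 2 to 4 counts in the WT kidney libraries and 0 to 4 in the WT muscle libraries. Cldn11 had 0 to 2 counts in WT spleen, where brain was at least 5671.1-fold higher.

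Liver differed from the other peripheral tissues in that every library held Mobp. The counts were 12, 16 and 290 in the WT libraries of replicates 1, 2 and 3, and 24, 27 and 17 in the heterozygous ones. The WT library of replicate 3 was the highest of the 6 for every one of Mbp, Mog, Mag, Mal, Cldn11 and Ugt8a as well. Mbp was at 4.28 TPM there and at 0.339 to 0.684 TPM in the other 5. Mog was at 0.746 TPM there and at 0.018 to 0.0715 TPM in the others. Cldn11 was at 1.23 TPM there and at 0.0424 to 0.0815 TPM in the others. For the 7 genes other than Cnp and Myrf, the excess over the mean of WT replicates 1 and 2 was close to a fixed share of the WT brain level: 0.31% for Mbp, 0.272% for Mobp, 0.282% for Mal, 0.287% for Ugt8a, 0.342% for Mag, 0.352% for Cldn11 and 0.378% for Mog. The 8 neuronal genes, among them Snap25 and Slc17a7 of the synapse, had an excess of 0.285% to 0.428% of their WT brain level in the same library, with a median of 0.342%. Myrf and Cnp did not share this ratio, with an excess of 11.6% and 0.964%. The 7 astrocyte genes had a median excess of 0.34% but a wider range, from 0.223% for Slc1a2 to 867% for Aldh1l1. Gja1 had 0.52% and Aldoc 0.669%. Aldh1l1 was at a mean of 501.3 TPM in WT liver replicates 1 and 2. The part of brain RNA in the liver values was not tested.

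**Figure D2:**
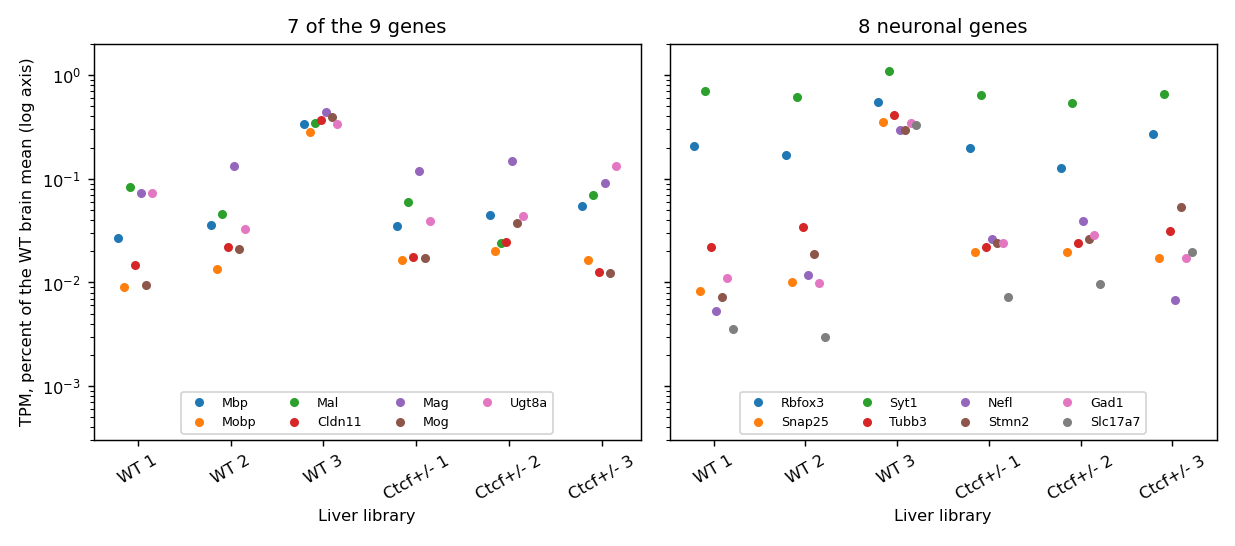
TPM in each liver library as a percent of the mean of the WT brain libraries (log axis), for 7 of the 9 genes on the left and 8 neuronal genes on the right, with 1 point per gene. In WT replicate 3 the 7 genes lie between 0.283% for Mobp and 0.446% for Mag, above their values in the other 5 liver libraries.

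Without that library, the log2 difference between WT brain and liver moved from 8.49 to 11.37 for Mobp, from 8.0 to 10.9 for Mog, from 8.06 to 10.65 for Cldn11 and from 8.06 to 9.89 for Mbp, and the count of genes called higher in brain stayed at 8. Against kidney the differences of liver moved by like amounts and some calls changed. Mog was called 10.9-fold higher in liver than in kidney with it (log2 difference kidney minus liver -3.44, adjusted p = 0.0116), and the log2 difference was -0.55 and not called without it. For Mag the same difference moved from -1.46 to -0.60 and lost its call. Mbp was not called between kidney and liver with it (0.54, SE 0.61), and was called higher in kidney without it (2.37).

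Mal, which in kidney is a protein of tubular epithelia, was not called different between kidney and brain. It stood at 341.7, 306.4 and 323.7 TPM in the 3 WT kidney libraries and at 284.8, 303.3 and 303.5 TPM in the heterozygous ones. The log2 difference of WT brain minus kidney was -0.08 (SE 0.40, edgeR adjusted p = 0.873). In TPM, with no TMM scaling, every WT brain library, at 391.6 to 501.1, exceeded every WT kidney library. In muscle Mal was 1.36 to 2.91 TPM and in spleen 0.0509 to 0.113 TPM over the WT libraries. Kidney exceeded liver, muscle and spleen by 7.86, 5.92 and 11.91 on the log2 scale, and all 3 differences were called (8.92 for liver without WT replicate 3). Over the 9 genes and the 6 pairs of peripheral tissues, 39 of 54 differences were called, 43 without WT liver replicate 3. Over all genes, the share called higher and lower was 29.4% and 24.7% for kidney against liver, 35.9% and 28.5% for kidney against muscle, 39.2% and 36.3% for kidney against spleen, 31.9% and 32.3% for liver against muscle, 35.2% and 37.7% for liver against spleen, and 37.2% and 38.1% for muscle against spleen.

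Kidney also held the highest peripheral levels of Ugt8a and Cldn11. Ugt8a was at 6.98, 5.29 and 5.27 TPM in the WT kidney libraries, and brain was 5.36-fold higher (log2 2.42, SE 0.38, edgeR adjusted p = 4.16e-05). In muscle, spleen and liver its WT mean was 0.308, 0.235 and 0.0688 TPM. Muscle exceeded spleen by 1.74 on the log2 scale, and spleen and liver were not called different (adjusted p = 0.312), although spleen was called higher without WT liver replicate 3. Cldn11 was at 7.66, 5.55 and 11.5 TPM in WT kidney, and brain was 27.2-fold higher (log2 4.77, SE 0.57).

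Spleen had the highest peripheral levels of Cnp, Mbp and Mag. Cnp was at 165.2, 176.6 and 219.0 TPM in the WT spleen libraries. Brain exceeded spleen by 0.84 on the log2 scale (SE 0.14, edgeR adjusted p = 5.85e-05), a 1.80-fold difference with no overlap between the groups. In liver, kidney and muscle Cnp was between 4.86 and 12.9 TPM. The log2 difference from spleen was -3.00 in liver, -4.23 in kidney and -3.78 in muscle. The Cnp exons share 154 bases, 4.23% of their length, with Dnajc7 on the other strand, and counting did not use strand. Exon sharing with another gene was found for none of the other 8.

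Mbp was at 21.0, 26.5 and 32.1 TPM in WT spleen, against 2.40 to 5.38 in muscle and 4.34 to 4.91 in kidney. Brain exceeded spleen 36.2-fold (log2 5.18, SE 0.71). Kidney and muscle were not called different (log2 -0.94 with TMM and 0.23 with total counts, adjusted p = 0.19 and 0.777), but muscle was called higher without WT liver replicate 3 (-0.93, adjusted p = 0.00302), where the standard error was 0.23 in place of 0.60. The calls of spleen over muscle (adjusted p = 0.0479) and of muscle over liver (adjusted p = 0.0486) lay close to the threshold and were lost when most single libraries of the fit were left out. Without WT liver replicate 3, however, both were far from it: the log2 difference of liver minus muscle was -3.29 in place of -1.48 (adjusted p = 3.43e-07), and that of muscle minus spleen -1.40 in place of -1.41 (adjusted p = 8.55e-05). Mag was at 1.56, 1.56 and 1.14 TPM in WT spleen and at 0.165 to 1.0 TPM in the other peripheral tissues. Spleen was called higher than kidney (log2 difference kidney minus spleen -1.91, adjusted p = 0.00108), and not called different from muscle. Liver minus spleen was -0.45 and not called, but it was called without WT liver replicate 3 (-1.29, adjusted p = 0.0105) and with total counts (-1.54, adjusted p = 0.00685).

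Myrf had another order. After brain came liver, with 7.15, 6.87 and 10.3 TPM in the WT and 10.7, 9.38 and 8.24 TPM in the heterozygous libraries. Kidney followed with 2.45 to 2.66 TPM, and spleen and muscle were below 0.05 TPM in every WT library. With libraries scaled by TMM, brain and liver were not called different (log2 0.19, SE 0.18, adjusted p = 0.361). With libraries scaled by total counts, brain was higher (log2 1.27, adjusted p = 2.89e-05). That choice moves all genes between these tissues: the median over all genes of brain minus liver is 0.15 with TMM and 1.24 with total counts, and that of brain minus muscle 0.19 and 1.45. The share of calls that were higher in brain was 54.5% and 76.8% for liver, and 55.1% and 79.9% for muscle. The log2 difference of kidney minus liver was -2.72 (SE 0.19), and spleen and muscle were not called different (adjusted p = 0.251).

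The other genes of the oligodendrocyte were compared in the same fit. All 10 transcription factors of the lineage, among them Olig1, Olig2 and Sox10, were higher in brain than in each of the 4 other tissues. Of 15 further genes of myelin structure, 13 were higher in brain than in kidney, 13 than in liver, 13 than in muscle and 14 than in spleen. Gjb1, a connexin of Schwann cells and hepatocytes, was lower in brain than in liver (16.0 and 1207.0 CPM, log2 -6.23) and than in kidney (log2 -1.14). Cd9, a widespread tetraspanin, was lower in brain than in kidney (log2 -1.49), and Sirt2, a deacetylase, lower than in muscle (log2 -0.50). Of the 8 genes of myelin lipid metabolism, 8 were higher in brain than in muscle, 6 than in spleen, 4 than in liver and 2 than in kidney. Lower in brain were 6 than in kidney, 2 than in liver and 2 than in spleen, beside 36%, 33.3% and 37% of all genes, and none than in muscle, beside 32.5%. Those lower than in kidney included Aspa, which splits N-acetylaspartate (log2 -2.42), Galc, which degrades galactosylceramide (-2.21), and Cers2, which makes ceramides with very long chains (-1.50).

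The effect of the Ctcf genotype on the 9 genes in brain was asked in a fit of the 6 brain libraries (19166 genes). None of the 9 was called, none had an unadjusted p under 0.05, and for none did the 3 heterozygous libraries lie on 1 side of the 3 WT libraries. Over all genes, 0.0157% were called, 2.96% had an unadjusted p under 0.05, and 7.83% had groups that did not overlap. DESeq2 also called none of the 9. The log2 fold changes of heterozygous minus WT were between -0.04 and 0.09 with a median of 0.03, beside a median of -0.004 over all genes and a median size of 0.069. Their 95% intervals lay between -0.27 and 0.37, both reached by Mag.

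The largest fold change in brain was that of Ugt8a. Its level was 67.8, 67.1 and 62.3 CPM in WT replicates 1, 2 and 3 and 62.1, 69.1 and 78.6 CPM in the heterozygous ones (log2 fold change 0.09, SE 0.09, edgeR adjusted p = 1). The lowest and the highest library were both heterozygous. Mbp was at 3392.3, 3589.8 and 2915.8 CPM in WT and 3401.9, 3293.8 and 3409.9 CPM in heterozygous brain (0.03, SE 0.08). In CPM these heterozygous values lay inside the WT range. Mobp, with 1335.4, 1355.6 and 1122.0 CPM in WT and 1314.8, 1146.9 and 1250.1 CPM in heterozygous brain, had the lowest fold change (-0.04, SE 0.09). Myrf was at 75.9, 88.3 and 63.2 CPM in WT and 79.2, 73.8 and 81.1 CPM in heterozygous brain (0.04, SE 0.11).

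The differences among WT libraries were larger than those between genotypes. In CPM, WT replicate 3 was the lowest of the 6 brain libraries and WT replicate 2 the highest for 8 of the 9 genes, all but Ugt8a. In TPM Mbp was instead highest in heterozygous replicate 3, at 1372.1 TPM beside 1348.8 TPM in WT replicate 2. Mag had the widest spread, with 292.1, 342.4 and 225.8 CPM in WT and 318.6, 293.1 and 279.1 CPM in heterozygous brain, a 1.52-fold range over the 6. Over the 6 libraries each of the 8 had a correlation of 0.80 to 0.99 with the mean of the other 8, whereas Ugt8a had 0.19 (Pearson r of log2 CPM, n = 6, a description of libraries that share depth and dissection). WT replicate 3 was the shallowest brain library, with 49819907 counts, and the part of depth in these differences was not tested.

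The other cell types did not share 1 order. The summed TPM of 5 choroid plexus genes was also highest in WT replicate 2 and lowest in WT replicate 3, at 2675.0, 3034.7 and 1912.6 in WT and 2939.7, 2613.7 and 2512.5 in heterozygous brain. That of 8 neuronal genes was 3755.5, 3814.2 and 4360.3 in WT and 4007.8, 4026.1 and 4391.1 in heterozygous brain, highest in the third library of each genotype. Those of astrocytes (2576.9 to 2968.0 TPM), microglia (543.1 to 596.3) and endothelium (66.2 to 115.5) were lowest in WT or heterozygous replicate 2. The 6 forebrain genes summed to 521.8 to 645.2 TPM, lowest in WT replicate 3, and the 7 genes of cerebellum and hindbrain to 39.7 to 53.1 TPM. In these sums no listed gene was at 0 counts, apart from 1 to 2 of the cerebellum and hindbrain list in 3 libraries. The part of cell makeup or dissection in the brain values was not tested.

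**Figure D3:**
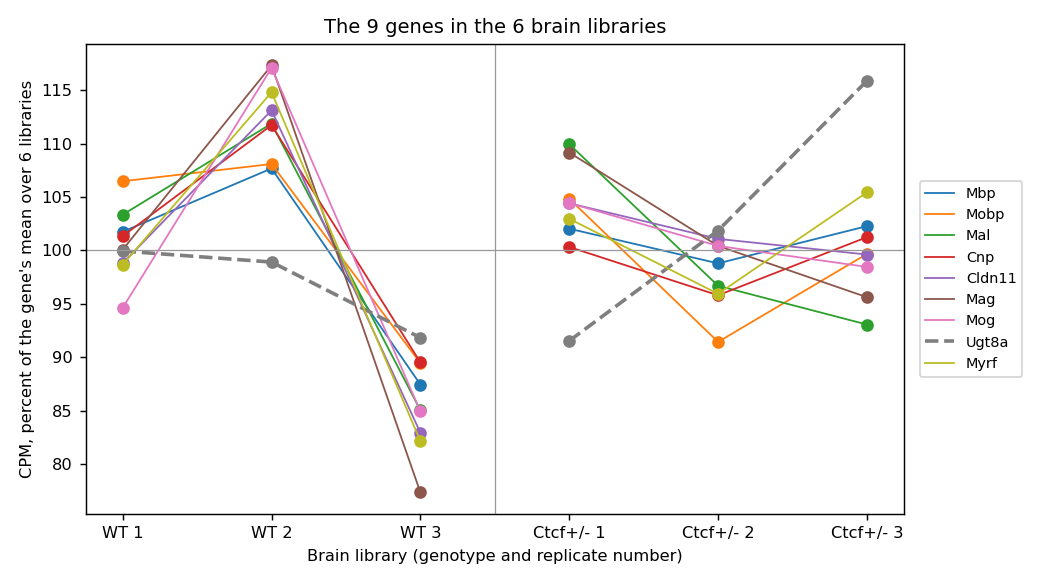
CPM of each of the 9 genes in the 6 brain libraries, as a percent of the mean of the gene over the 6, with lines joining libraries of 1 genotype for reading only. For 8 genes WT replicate 2 is the highest and WT replicate 3 the lowest, while Ugt8a (dashed) is lowest and highest in heterozygous replicates 1 and 3.

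The genes that varied over the 6 brain libraries most like the mean of the 9 were Ilvbl (r = 0.996), Usp30 (0.992), Pip5k1b (0.992), Cldn2 (0.991) and Tpbg (0.987), none of them from the lists of oligodendrocyte genes. Cldn2 encodes a claudin of leaky epithelia such as the choroid plexus. When deviations from the group means were used, 1 of these 5, Ilvbl, was still among the first 5. With 6 libraries such values describe these libraries only.

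Of the related lists, none of the 15 further genes of myelin structure, 8 of myelin lipid metabolism, 10 transcription factors or 10 genes of precursors and newly formed oligodendrocytes was called by genotype in brain. Their median log2 fold changes were 0.03, 0.00, 0.04 and -0.03. Among the myelin genes Klk6, a protease, had the largest difference (-0.22, SE 0.24), followed by Nfasc, an adhesion protein of the node of Ranvier (0.17, SE 0.06), and Hapln2, a linker of the nodal matrix (0.14, SE 0.17). Groups did not overlap for 2 of the 15, Nfasc and Ermn, a cytoskeletal protein of myelin (-0.12, SE 0.06), beside 7.83% of all genes. Nfasc was at 298.0, 303.8 and 267.1 CPM in WT and 321.1, 328.5 and 327.7 CPM in heterozygous brain, with an unadjusted p of 0.0296 and an edgeR adjusted p of 1. Among the factors Tcf7l2, Sox8 and Zfp488 had the largest differences (0.21, 0.11 and 0.11), with overlapping groups. No gene of the marker lists for neurons, astrocytes, microglia, endothelium, choroid plexus, forebrain or cerebellum and hindbrain was called in brain.

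**Figure D4:**
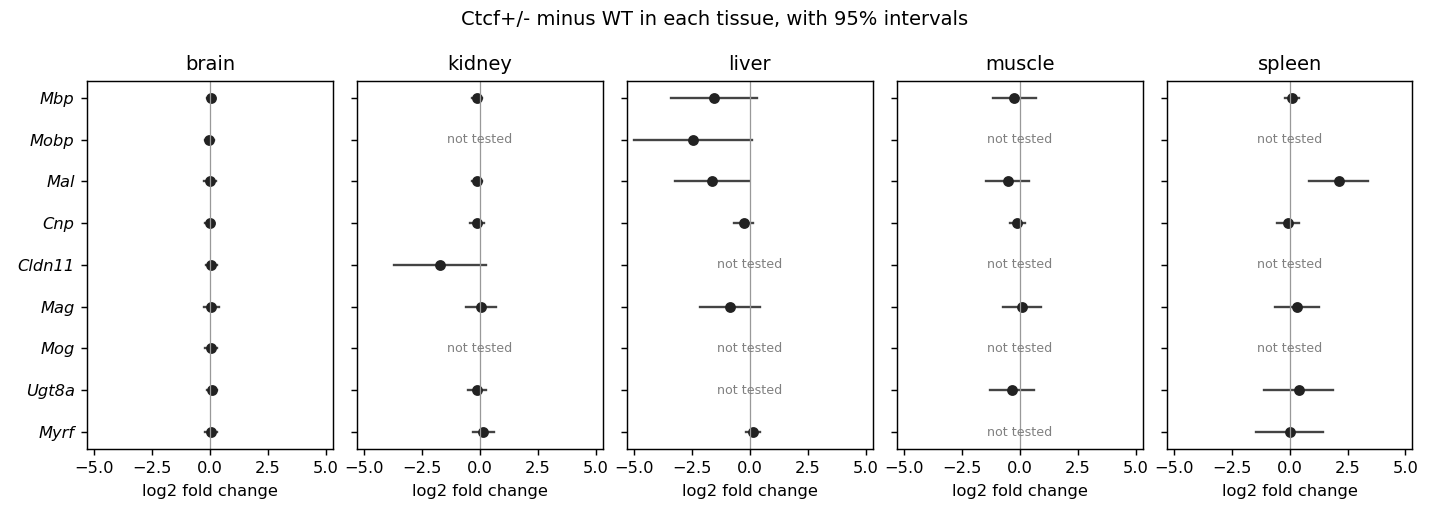
Log2 fold change of heterozygous minus WT for each gene and tissue, with the 95% interval from the edgeR fit of the 6 libraries of the tissue; genes below the filter on low counts are written as not tested. In brain all 9 intervals lie between -0.27 and 0.37. In the other tissues many intervals are wider, such as -3.7 to 0.27 for Cldn11 in kidney. Others are not, such as -0.33 to 0.08 for Mal in kidney. Mal in spleen and Mal in liver have intervals that leave out 0.

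Outside the brain, the filter on low counts was passed by 7 of the 9 genes for kidney, 6 for liver, 5 for muscle and 6 for spleen, and none was called by genotype in any of them. Over all genes 0.0211%, 0.0193%, 0.0249% and 0.242% were called. An unadjusted p under 0.05 was reached by Mal in liver and Mal in spleen, beside 4.56% and 3.52% of all genes, and by none of the genes tested in kidney and muscle, beside 6.44% and 6.45%. DESeq2 called none of the 9 in these tissues. Among the genes tested, groups did not overlap for Mbp in kidney, where 11.4% of all genes had groups apart, and for Mal in spleen, where 6.64% had. They did so for none in liver (8.99%) or muscle (12.2%).

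In kidney Mbp was at 17.2, 16.4 and 16.5 CPM in WT and 14.0, 15.9 and 16.2 CPM in heterozygous libraries (log2 fold change -0.12, SE 0.09, edgeR adjusted p = 0.979). All 3 heterozygous libraries were lower, and the nearest WT and heterozygous values were 16.4 and 16.2 CPM. In TPM the groups overlapped, at 4.34 to 4.91 in WT and 3.98 to 4.48 in heterozygous kidney. Mal was at 396.9, 383.1 and 389.1 CPM in WT and 332.1, 357.1 and 383.8 CPM in heterozygous kidney (-0.12, SE 0.09), where heterozygous replicate 3 exceeded 1 WT library.

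Cldn11 in kidney had the widest split. It was at 5.99, 4.68 and 9.34 CPM in WT, at 0.327 and 0.551 CPM in heterozygous replicates 1 and 2, and at 5.18 CPM in heterozygous replicate 3. Heterozygous replicate 3 lay inside the WT range, and the fold change was not called (log2 -1.72, SE 0.87, edgeR adjusted p = 0.854). Without that library it was -3.93 with an adjusted p of 0.0147, and over all alternatives the adjusted p was 0.0147 to 1. Replicate numbers were taken to pair the kidney libraries, and in each of the 3 pairs Cldn11 was lower in the heterozygous library. With the replicate block its log2 fold change was -2.57 (SE 0.55, adjusted p = 0.181), also not called. Genes that split the kidney libraries the same way, picked after their values were seen, included Akr1b3, the aldose reductase, which accumulates sorbitol in the inner medulla, at 410.9, 366.9 and 334.0 CPM in WT and 47.6, 101.8 and 327.1 CPM in heterozygous kidney. Adgrf1, Celf3, Prss35 and Arhgdig had the same low pair. Slc12a1, the salt transporter of the thick ascending limb in the outer medulla and cortex, was 1371.9 to 1563.5 CPM in the 6 libraries. Aqp2, the water channel of the collecting duct, was at 432.4, 460.7 and 358.5 CPM in WT and 240.0, 537.8 and 719.6 CPM in heterozygous kidney, so it was low in heterozygous replicate 1 and not in replicate 2. Which zone of the kidney each piece held is not stated in the labels, and its part in the Cldn11 values was not tested.

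In liver Mal was at 0.502, 0.296 and 1.80 CPM in WT and 0.313, 0.135 and 0.391 CPM in heterozygous libraries (log2 -1.64, SE 0.70, unadjusted p = 0.0455, edgeR adjusted p = 1). The high value was that of WT replicate 3. Without that library the log2 fold change was -0.53, and those of Mobp, Mbp and Mag moved from -2.45 to 0.48, from -1.55 to 0.33 and from -0.87 to 0.02. Myrf, with 29.5, 29.9 and 36.4 CPM in WT and 38.3, 35.5 and 31.7 CPM in heterozygous liver, had a log2 fold change of 0.14 (SE 0.13) with overlapping groups.

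In muscle several of the genes put the libraries in an order close to that of Prx, a gene of peripheral myelin. Mbp was at 20.2, 13.9 and 8.82 CPM in WT and 11.8, 18.7 and 6.24 CPM in heterozygous libraries, a 3.24-fold range (log2 fold change -0.23, SE 0.41). Prx, which organises the Schwann cell membrane, put the 6 libraries in the same order, with 10.6, 6.81 and 4.56 CPM in WT and 5.73, 10.1 and 3.23 CPM in heterozygous muscle. Of the 15 pairs of libraries, Mal put 13 in the order of Prx, Mag 12, Ugt8a 12, Cnp 11, Mog 11, Cldn11 10, Myrf 9 and Mobp 4, the last with counts in 1 library only. Of the neuronal genes, Snap25 was at 0 counts in 4 and Rbfox3 in 3 of the 6 muscle libraries. All 8 neuronal genes together summed to 1.76 to 2.14 TPM in WT and 1.47 to 1.87 TPM in heterozygous muscle. The filter on low counts was passed by 3 of the 8. How much nerve each piece of muscle held was not measured. Mal was at 3.32, 3.61 and 1.65 CPM in WT and 1.83, 3.06 and 1.11 CPM in heterozygous muscle (-0.52, SE 0.41). Genes of the thick ascending limb and distal nephron, 6 in all, had a summed TPM of 1.84, 12.8 and 2.01 in WT muscle. In heterozygous muscle the sum was 0.224 to 0.746. It was highest in the library with the highest Mal. Heterozygous replicate 2 had the lowest sum, with 0 counts of Slc12a1, and Mal at 3.06 CPM. The part of these genes in the Mal values was not tested. Myrf had 3 to 4 counts in the WT and 1 to 2 in the heterozygous muscle libraries, too few to be tested.

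In spleen Mal was at 0.175, 0.132 and 0.0503 CPM in WT and 0.320, 0.592 and 0.616 CPM in heterozygous libraries. All 3 heterozygous libraries were higher (log2 fold change 2.11, SE 0.54, unadjusted p = 0.006, edgeR adjusted p = 0.569), from 5 to 12 counts in WT and 32 to 59 counts in heterozygous spleen. Kidney tubule genes other than Slc12a3 moved with it. Over all 6 genes of the thick ascending limb and distal nephron, the summed TPM was 0.161 to 0.529 in WT spleen. It was 2.87 to 5.13 in heterozygous spleen. In each WT library 4 to 5 of the 6 were at 0 counts, and none was at 0 in the heterozygous ones. Of these, Umod, the urinary glycoprotein uromodulin, and Slc12a1 were called higher in heterozygous spleen (edgeR adjusted p = 0.0318 and 0.035). Umod had 0 counts in each WT and 158, 232 and 290 counts in the heterozygous libraries. Slc12a3 had 66, 135 and 204 counts in WT and 219, 122 and 266 counts in heterozygous spleen, with overlapping groups. As a share of the WT kidney level, Mal in heterozygous spleen was 0.0943%, 0.118% and 0.184%, Slc12a1 0.0538%, 0.0685% and 0.122%, and Umod 0.0473%, 0.0649% and 0.0921%. In WT spleen Mal was at 0.0157% to 0.0348% of the kidney level and Umod at 0. The part of kidney RNA in the Mal values was not tested. Of the other lists, Ttr, the transthyretin gene of the choroid plexus list, was called lower in heterozygous spleen (log2 fold change -5.77, SE 0.45, edgeR adjusted p = 0.0174). The spleen fit called 45 genes in all, and 0 with the replicate block or without WT replicate 1, 2 or 3. The calls of Umod, Slc12a1 and Ttr were therefore lost under these alternatives. Cnp, at 336.2, 278.4 and 283.4 CPM in WT and 257.7, 359.8 and 244.8 CPM in heterozygous spleen, and Mbp, at 98.6, 96.4 and 96.0 CPM in WT and 98.2, 98.1 and 114.4 CPM in heterozygous spleen, had overlapping groups.

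**Figure D5:**
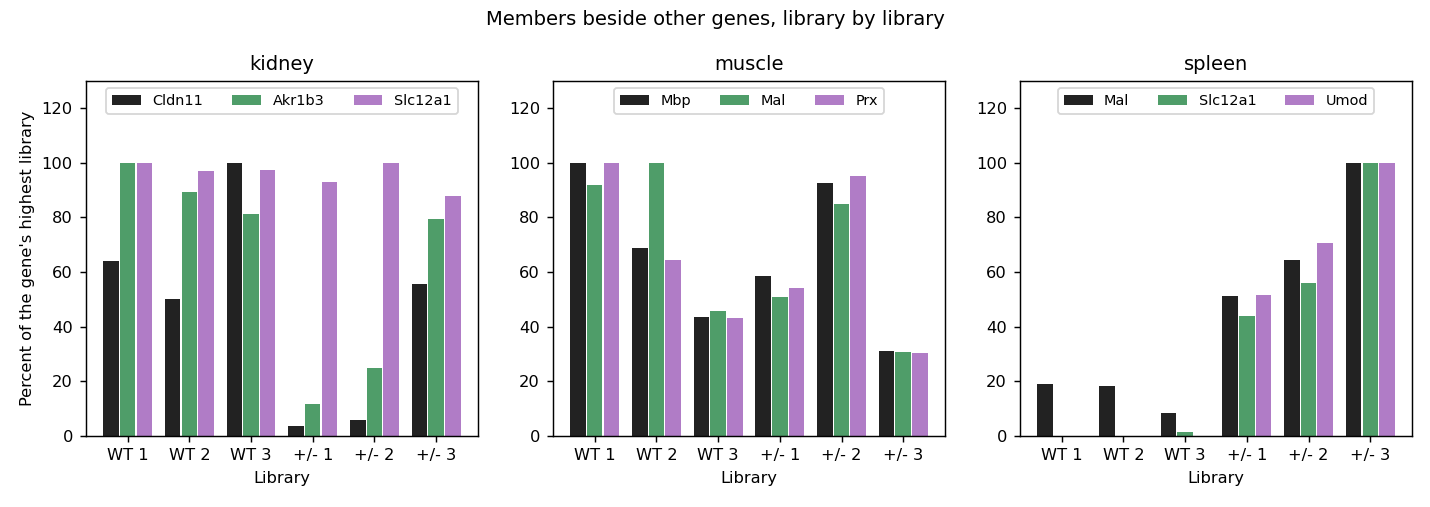
Members beside other genes in the 6 libraries of kidney, muscle (CPM) and spleen (TPM), each as a percent of the highest library of the gene. In kidney Cldn11 and Akr1b3 are low in heterozygous replicates 1 and 2 while Slc12a1 is level, in muscle Mbp and Mal vary with Prx, and in spleen Mal is highest in the heterozygous libraries that hold Slc12a1 and Umod.

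Whether the genotype effect differed between tissues was tested in a fit of all 30 libraries (24262 genes). None of the 9 genes was called, beside 0.758% of all genes, and 1 had an unadjusted p under 0.05, beside 6.66% of all genes. That gene was Mal (unadjusted p = 0.00156, edgeR adjusted p = 0.128). It was called with DESeq2 (adjusted p = 0.000831) and without the WT liver library of replicate 2 (0.0383), and its adjusted p was 0.000831 to 0.344 over the alternatives. Cldn11 was called without the heterozygous kidney library of replicate 3 (edgeR adjusted p = 0.013).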

How the data were processed

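RNA from tissue pieces was sequenced as standard Illumina libraries, per the labels' protocols. The authors deposited raw read counts per gene, which per the file headers were made with featureCounts 1.5.0-p3 from paired reads over exons of Ensembl release 86 (GRCm38), without strand and without reads that map to several places or overlap several genes. The submitters' processing notes name STAR, DESeq2 and GRCm38/mm10 without versions. No column of the tables was left unused. Libraries held 49819907 to 131645999 counts, and 3 counts equal 0.0228 to 0.0602 CPM.

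From the counts, edgeR 4.0.16 (R 4.3.3) gave TMM-scaled CPM and quasi-likelihood F-tests after filterByExpr, with Benjamini-Hochberg adjustment over all genes tested and a call at an adjusted p under 0.05. Genotype was fitted on the 6 libraries of each tissue, tissues on the 15 WT libraries, and the interaction on all 30. TPM was computed from counts and deposited exon length. Differences and standard errors are on the log2 scale, and intervals cover 95%. The series' design names 3 mice of each genotype, and no label ties a library to a mouse. The tests of genotype in brain and of brain against kidney were checked on simulated counts. These left out genes with low counts and gave every gene the same spread, so results at low counts were not covered. Promoter sequences are from RefSeq (GRCm38.p6).

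The 9 genes and all gene lists were chosen with earlier results of these data known. Genes named beyond the 9 were Ctcf, the list members called by genotype, up to 3 members with the largest genotype difference in brain from the lists of myelin structure and of transcription factors, and the 5 named genes with a mean of at least 1 CPM in brain most like the mean of the 9. Ermn, the list members named between tissues, the marker genes in muscle and liver, and the look-alikes of Cldn11 in kidney were picked after their values were seen. Some genes are not reported here. Alternatives were DESeq2 1.42.0, other scalings and filters, a replicate block, heterozygous libraries for the tissue comparison, and each library left out in turn. Libraries with the same replicate number were checked for pairing by the correlation of their deviations from the group means: it was 0.282, 0.495 and 0.641 for the 3 numbers in brain and 0.273, 0.237 and 0.227 in kidney, so the numbers were taken to pair libraries there. In liver, muscle and spleen at least 1 number was below 0.1.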

Additional observations from a re-analysis of the deposited data

How the results depend on the processing

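None of the 9 genes was called by genotype in brain, liver, muscle or spleen under any alternative, and in kidney leaving out single libraries gave 0 to 1 calls, the 1 being Cldn11 without heterozygous replicate 3. Blocking on the replicate number, which pairs libraries in brain and kidney, left 0 calls by genotype in every tissue and 8, 8, 9 and 9 genes higher in brain than in kidney, liver, muscle and spleen. DESeq2 gave Mobp no p-value there, and called the other genes as edgeR did (7, 7, 8 and 8). With 10 counts required in every library, 3 genes were tested against each other tissue and 3 were called higher in brain, and 12 of 18 differences among peripheral tissues were called in place of 39 of 54, since fewer genes enter; leaving out single libraries gave 35 to 43. The interaction called 1 gene, Mal, with DESeq2 and 0 to 1 when libraries were left out, Mal or Cldn11. The median level of the 9 genes in WT brain was 332.7 TPM, 310.0 to 356.5 with libraries left out, and 73.6 as FPKM with TMM scaling, a different unit. The list of 5 genes most like the 9 shared 1 with that from deviations from group means. Cnp, lower in kidney than in muscle with TMM (log2 -0.45), was higher with total counts (0.71). Depth limits Mog outside brain, and Mobp in kidney, muscle and spleen. It also limits Cldn11 in liver, muscle and spleen, Myrf in muscle and spleen, and Ugt8a in liver. In these tissues some or all libraries held under 10 counts of the gene, as WT spleen replicate 3 did of Mal, with 5.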
